A study of Mus musculus with 34 samples.

Results

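Interferon-stimulated genes are the antiviral genes that cells switch on when type I interferon reaches their receptor. The set described here held 39 mouse genes, listed by symbol as known interferon targets and found in the GENCODE annotation of mm10 among 55413 annotated genes, of which 21938 are protein-coding. No ChIP-seq value enters the rule that chose them, although the list was drawn up with earlier results of these data known. Of the 39, 38 are annotated as protein-coding, with Mx2 as the exception. The data were 30 lists of ChIP-seq peaks from bone marrow-derived dendritic cells (BMDCs) of C57BL/6 mice, labelled as 8 weeks old. CTCF-WT cells carried CreER, a Cre recombinase that tamoxifen activates and that is expressed from the Rosa26 locus. CTCF-KO cells carried CreER with CTCF fl/fl, a Ctcf gene flanked by loxP sites, and 4-OH tamoxifen was added as culture began, on its first day, to delete the allele. Per the methods, the CTCF-WT cells came from littermates with CreER and unmodified Ctcf. Marrow was cultured with GM-CSF for 6 days, CD11c+ cells were selected on beads, and cells were left untreated (WT and KO) or given LPS, a bacterial ligand of the receptor TLR4, at 100 ng/ml for 3 h (WTLPS and KOLPS). Lists for p65, SMC1, CTCF, H3K27ac, H3K4me3, H3K4me1 and H3K27me3 covered the 4 conditions, while STAT5 was profiled in WT and KO alone, 15 min after a fresh dose of GM-CSF.

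LPS reaches these genes along a relay. TLR4 signals through the adaptor TRIF (Ticam1) to the kinase TBK1 and the factor IRF3, which switch on interferon β, and secreted interferon β then activates JAK1 and TYK2 through the receptor IFNAR. The resulting complex, which holds STAT2 and IRF9, binds a DNA element built from repeated GAAA blocks, the interferon-stimulated response element. NF-κB, whose subunit p65 (RelA) was measured here, acts chiefly on inflammatory genes and on the interferon β gene itself. H3K4me3 marks promoters, H3K27ac marks active promoters and enhancers, CTCF is a DNA-binding insulator protein, and SMC1 is a subunit of the cohesin ring that CTCF halts on chromatin.

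The element is visible in the promoters themselves. RefSeq promoter sequences on GRCm38.p6, from 250 bases before to 50 bases after the start, were at hand for 30 of the 39 genes. The core, GAAA and GAAA again with any 2 bases between them, searched on both strands, lay in 17 of the 30 (56.7%), against 665 of 16522 protein-coding genes with such a sequence (4.02%). Of 27 core sites, 20 lay within the 150 bases before the start, and the median position of a site's centre was 67 bases upstream. A longer form with a C after the second GAAA, each match of which holds a core, was present in 15 of 30 genes (50%) against 0.987% of protein-coding genes. The STAT element TTCNNNGAA lay in 7 of 30 (23.3%, against 9.02%), and the κB consensus in 3 of 30 (Bst2, Gbp5 and Oasl1, 10%, against 5.73%). Within 2.5 kb either side of the start, where 51.2% of protein-coding genes held a core by letter count, 35 of the 39 genes did. A match is a description of the letters and not evidence of binding, and no value here was traced to it. The 150 bases before the RefSeq start are shown for 8 genes that span the arrangements found, with cores in capitals, and for Cmpk2 and Irf7, whose 150 bases held none. Isg15, a ubiquitin-like protein, has a run of overlapping cores, Ifit1 and Ddx60 have a separated pair, Oas1a and its near copy Oas1g share the same pair close to the start, and in Gbp2, Ifit1 and Rsad2 the core reads on the opposite strand, so that it appears as TTTC blocks.

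Isg15, chr4:156200819-156200968, minus strand: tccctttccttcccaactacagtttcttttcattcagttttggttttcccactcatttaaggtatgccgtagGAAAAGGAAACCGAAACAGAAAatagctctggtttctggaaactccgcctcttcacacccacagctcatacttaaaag
Ifit1, chr19:34640739-34640888, plus strand: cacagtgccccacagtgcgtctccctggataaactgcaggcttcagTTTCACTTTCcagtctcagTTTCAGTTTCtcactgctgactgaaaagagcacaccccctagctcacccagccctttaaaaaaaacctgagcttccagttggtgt
Ddx60, chr8:61927937-61928086, plus strand: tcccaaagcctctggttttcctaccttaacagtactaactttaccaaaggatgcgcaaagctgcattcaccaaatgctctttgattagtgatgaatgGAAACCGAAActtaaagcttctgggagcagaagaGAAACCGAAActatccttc
Oas1a, chr5:120907526-120907675, minus strand: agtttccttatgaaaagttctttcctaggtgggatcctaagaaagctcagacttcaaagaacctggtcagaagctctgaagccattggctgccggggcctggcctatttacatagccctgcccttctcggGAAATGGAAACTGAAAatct
Oas1g, chr5:120887614-120887763, minus strand: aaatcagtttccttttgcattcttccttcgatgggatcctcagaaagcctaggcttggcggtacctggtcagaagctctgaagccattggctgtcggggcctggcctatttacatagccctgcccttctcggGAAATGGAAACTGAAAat
Bst2, chr8:71537473-71537622, minus strand: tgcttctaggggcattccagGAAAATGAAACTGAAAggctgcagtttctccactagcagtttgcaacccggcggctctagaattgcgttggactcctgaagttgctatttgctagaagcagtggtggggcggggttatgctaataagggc
Gbp2, chr3:142620513-142620662, plus strand: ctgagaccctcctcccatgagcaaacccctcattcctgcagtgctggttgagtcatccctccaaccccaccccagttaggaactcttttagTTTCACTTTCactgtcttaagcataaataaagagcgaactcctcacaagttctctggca
Rsad2, chr12:26456453-26456602, minus strand: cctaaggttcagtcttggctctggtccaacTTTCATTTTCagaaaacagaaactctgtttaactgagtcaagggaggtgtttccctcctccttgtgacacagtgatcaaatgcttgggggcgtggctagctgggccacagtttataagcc
Cmpk2, chr12:26469065-26469214, plus strand: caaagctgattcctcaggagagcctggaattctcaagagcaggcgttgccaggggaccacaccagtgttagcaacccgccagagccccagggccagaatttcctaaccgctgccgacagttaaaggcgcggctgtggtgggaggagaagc
Irf7, chr7:141266425-141266574, minus strand: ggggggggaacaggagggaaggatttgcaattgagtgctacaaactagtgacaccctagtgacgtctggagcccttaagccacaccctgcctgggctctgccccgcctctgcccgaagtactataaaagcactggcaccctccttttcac

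A promoter was the 5001 bp from 2.5 kb before to 2.5 kb after the start of a gene's longest transcript, and a peak was counted there if it shared at least 1 bp. For each narrow peak the number of sequenced fragments at its summit was recovered from the deposited fold enrichment and −log10 p, which worked for at least 99.77% of the peaks in every narrow list. The background, the fragments expected by chance at a summit, ran from 0.705 to 5.76 fragments, and lists held 504 to 96475 peaks. Each antibody and condition had a single list, so no spread between replicates exists, no difference was tested, and intervals in square brackets or after a ratio are exact 95% intervals that cover counting error only. All lists come from bulk cells, in which signal in fewer cells and less signal per cell cannot be told apart. CTCF-KO lists of CTCF held 20151 and 11576 peaks against 60537 and 54020 in CTCF-WT. The cells carried H3K4me3 at 10 of 10 dendritic and myeloid marker genes in all 4 lists, and H3K27ac at 9 of the 10, with Flt3 the exception. H3K27me3 lay at 4 of these 10 in WT: Flt3, Zbtb46, Irf4 and Irf8. Cd3e, Ly6g, Ncr1 and Alb, markers of other cell types, had neither H3K4me3 nor H3K27ac in any of the 4 lists. Of these 2 marks Epcam had H3K4me3 alone, and Pecam1 had H3K27ac in WT and WTLPS only. The macrophage and monocyte markers Csf1r, Adgre1 and Mertk also had H3K4me3 in all 4 lists, the first 2 with H3K27ac, and their part in the results was not tested. Some member promoters share sequence with other places in the genome. In 6 of them over 25% of the 31-base stretches have another copy (Ifit3 58.3%, Samd9l 47.9%, Oas1a 47.6%, Ifit3b 46.9%, Oas1g 44.3% and Ifi35 32.3%), and the part of this in their values was not tested. Dtx3l and Parp9 lie back to back and share most of their windows, so they count the same peaks. The windows of Ifit1, Isg15, Stat2 and Rtp4 each hold the start of another protein-coding gene (Ifit1bl2, AW011738, Apof and Masp1). Gbp5 is annotated from position 142493978 of chromosome 3, upstream of the start used here, 142496934. Sites before that start can therefore lie inside the gene or close to its annotated edge.

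Most interferon-stimulated promoters were already marked before LPS. In unstimulated CTCF-WT cells, 37 of the 39 promoters had an H3K4me3 peak (56.7% of protein-coding promoters did) and 33 had an H3K27ac peak (44.1%). With LPS these became 38 (57%) and 38 (41.3%). The counts in CTCF-KO were close: 35 of 39 for H3K4me3 (57.2%) and 35 for H3K27ac (44.5%) without LPS, and 38 (56.2%) and 36 (40.8%) with it. In all 4 lists, 33 promoters had H3K27ac (35.3% of protein-coding promoters) and 35 had H3K4me3 (54.5%). p65 stood at the other end, with 1 promoter before LPS (0.474% of protein-coding promoters) and 4 after it (2.86%) in CTCF-WT, and 1 (0.342%) and 1 (1.86%) in CTCF-KO.

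**Figure D1:**
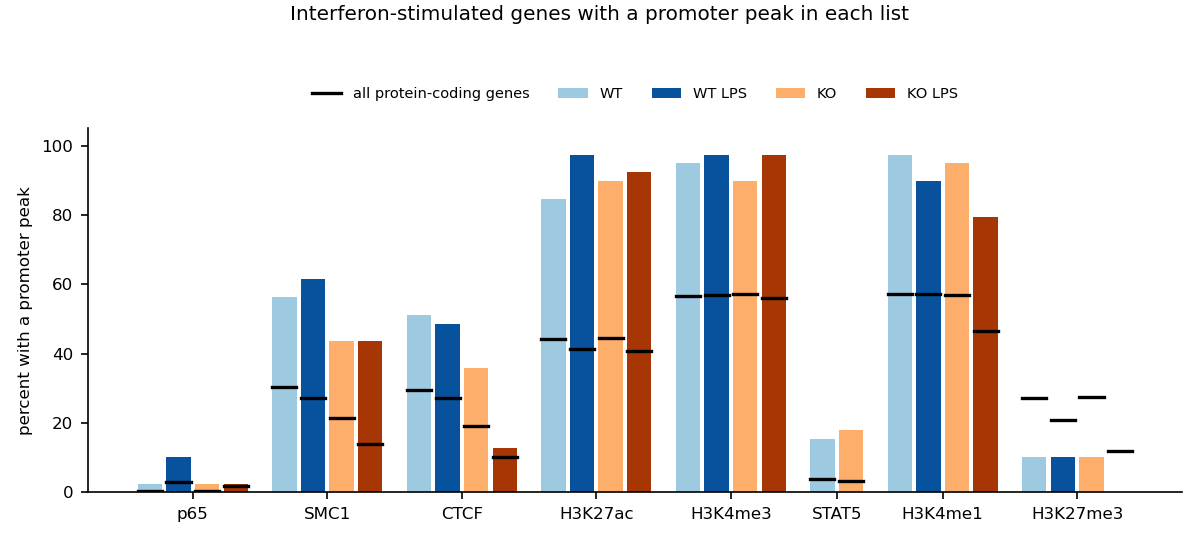
Share of the 39 interferon-stimulated promoters with at least 1 peak (bars, percent), for each antibody and condition, with the share among all 21938 protein-coding promoters as black lines. Bars for H3K27ac and H3K4me3 stand above the lines in every condition, p65 bars stand for 1, 4, 1 and 1 promoters, and H3K27me3 bars lie below the lines.

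LPS was followed by wider and stronger H3K27ac at nearly the whole set in CTCF-WT cells. The number of bases under H3K27ac peaks was larger in WTLPS than in WT at 38 of 39 promoters and equal at 1, Rtp4, whereas it was larger at 36.3% of the 10873 protein-coding promoters with any H3K27ac peak. The median over the 39 was 1563 bases in WT and 3704 in WTLPS, against 1270 and 1040 over those protein-coding promoters. Cover was at least 2 times higher, after adding 100 bp to both, at 16 promoters (4.08% of protein-coding promoters) and at least 2 times lower at 0 (9.71%). New peaks appeared at 5 promoters that had none in WT: Cmpk2, Ifi44, Oas1a, Oas1g and Oas2 (2.35%).

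The families differed in where they started. The GTPases Mx1, Mx2, Gbp2, Gbp3 and Gbp5, which block viral particles or attack the vacuoles of intracellular microbes, were the most covered before LPS, with a median of 3884 bases in WT and 4765 in WTLPS. The ubiquitin-like modifier Isg15 and the genes of its pathway and of ubiquitin and ADP-ribose transfer (Usp18, Herc6, Dtx3l, Parp9, Parp14) had medians of 2979 and 3883. The transcription factors Irf7, Irf9 and Stat2 had 2026 and 2821. Lower starting points were seen in the sensors of foreign nucleic acid (Ddx58, Ddx60, Dhx58, Eif2ak2, Ifih1, Zbp1), with 1360 and 3081, and in the IFIT genes, whose proteins bind viral RNA, with 1416 and 4335. The OAS and OAS-like genes, some of which encode enzymes that make the signal that activates RNase L, had the lowest median in WT, 621 bases, and 2752 in WTLPS. Among the remaining effectors the medians were 998 and 2311.

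Single genes show the range. At Cmpk2, a mitochondrial nucleotide kinase gene next to Rsad2, H3K27ac covered 0 bases without LPS in both genotypes, 2632 with it in CTCF-WT and 1989 in CTCF-KO. At Rsad2, which encodes viperin, it covered 2324, 5001, 604 and 2609 bases in WT, WTLPS, KO and KOLPS, so the window was full in WTLPS only. For Isg20, an RNA exonuclease gene, the values were 165, 3344, 412 and 1997 bases. Irf7, the factor that amplifies interferon production, had 407, 1634, 469 and 1408 bases. Both LPS lists were higher than both unstimulated lists at each of these 4 genes. Ifit2 was different, with 772, 4441, 205 and 458 bases, since KOLPS was lower than unstimulated WT. Oas2 had 895 bases in WTLPS and Ifi44 had 347, and neither had any in the other 3 lists.

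**Figure D2:**
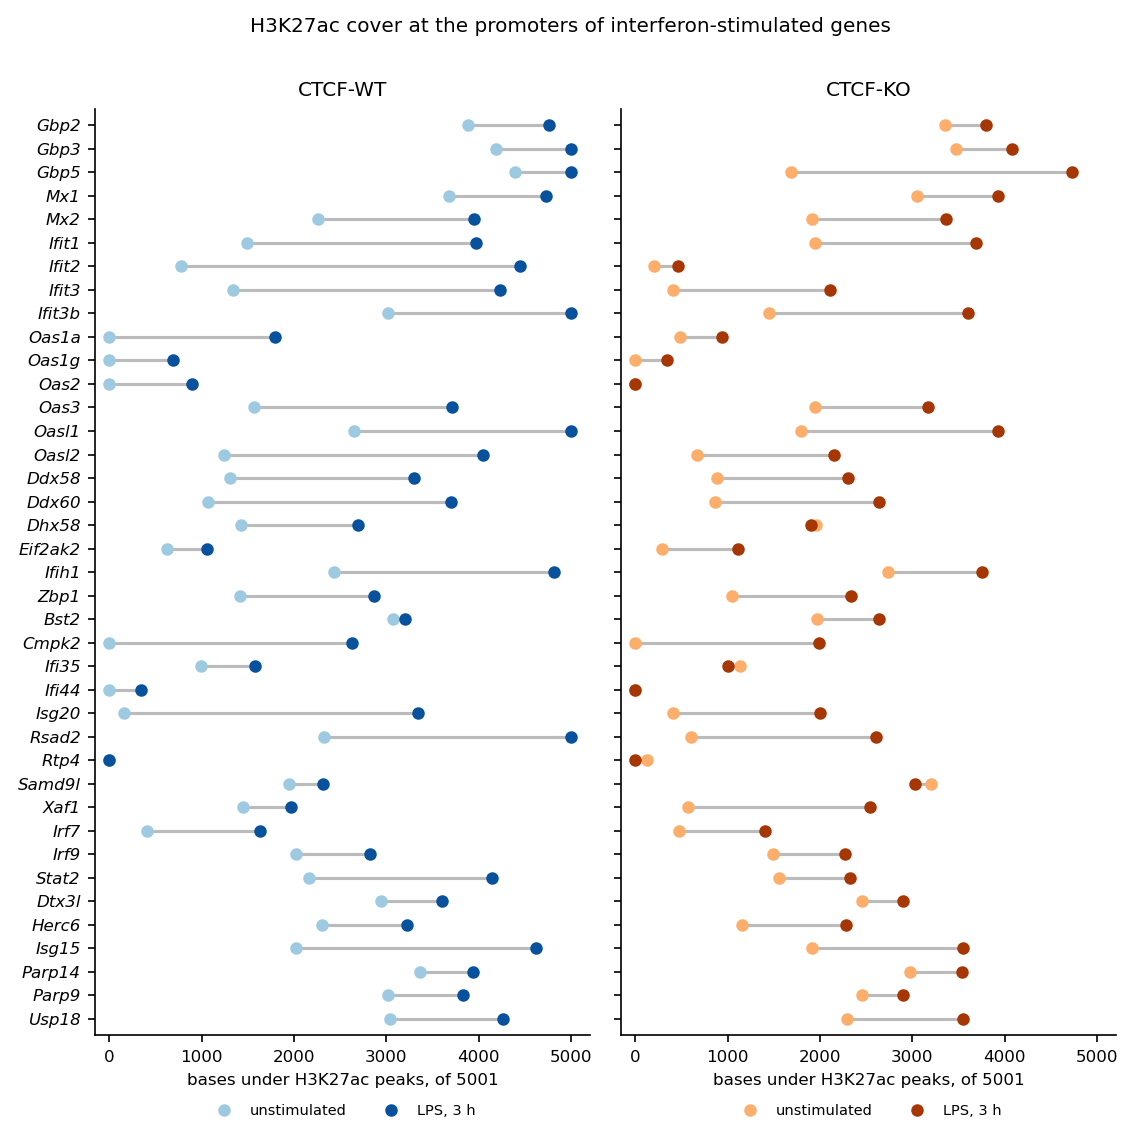
Bases under H3K27ac peaks (horizontal axis, of 5001) at each interferon-stimulated promoter, without LPS (pale) and after 3 h of LPS (dark), in CTCF-WT (left) and CTCF-KO (right), with genes grouped by role. Dark points lie to the right of pale ones at 38 genes in CTCF-WT and at 33 in CTCF-KO.

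The increase with LPS was also present in CTCF-KO cells. Cover was larger in KOLPS than in KO at 33 promoters, smaller at 4 (Dhx58, Ifi35, Rtp4 and Samd9l) and equal at 2, against 23.7% larger among protein-coding promoters. It was at least 2 times higher at 15 (2.67% of protein-coding promoters) and at least 2 times lower at 1, Rtp4 (11.7%). Peaks were called only after LPS at Cmpk2 and Oas1g (1.86%). Of the promoters with at least doubled cover, 9 were on both lists, which is 56.2% of the CTCF-WT list and 60% of the CTCF-KO list: Cmpk2, Ddx58, Ddx60, Ifit3, Irf7, Isg20, Oas1g, Oasl2 and Rsad2. On the CTCF-WT list alone were Ifi44, Ifit1, Ifit2, Isg15, Oas1a, Oas2 and Oas3, and on the CTCF-KO list alone Eif2ak2, Gbp5, Ifit3b, Oasl1, Xaf1 and Zbp1. A gene's place on only 1 of the lists was not tested as a difference, and several lay near the limit: Ifit1 covered 1951 bases in KO and 3685 in KOLPS, and Isg15 covered 1915 and 3544. Cover also cannot exceed the 5001 bases of the window, so a promoter with wide cover before LPS could not double. The part of this in the lists was not tested.

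Summit height depends less on where a peak's edges were drawn. Fragments at the highest H3K27ac summit of the window, which may lie at another place in each list, were divided by the background of the list, and the LPS value by the unstimulated one. In CTCF-WT the ratio was above 1 at 33 of the 33 promoters with a peak in both lists, with a median of 2.26 and a range of 1.37 to 3.67, while the median over protein-coding promoters was 0.922. In CTCF-KO it was above 1 at 32 of 34, with a median of 1.81 and a range of 0.872 to 3.42, against 0.778. Relative to the median of protein-coding promoters, the set's median was 2.45 times as high in CTCF-WT and 2.33 times in CTCF-KO. Ratios of at least 1.5 were found at 31 of 33 promoters (8.73% of protein-coding promoters with a peak in both) and at 22 of 34 (2.67%). None were at least 1.5 times lower in either genotype (0 of 33 and 0 of 34, against 14.6% and 30.4%). The interval of the ratio lay wholly above 1 at 27 of 33 (3.72%) and at 17 of 34 (0.574%), and wholly below 1 at 0 in both (2.27% and 5.09%).

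The highest CTCF-WT ratio was at Oasl2, an OAS-like gene, with 12 fragments in WT and 45 in WTLPS (3.67, interval 1.91 to 7.63). Its CTCF-KO ratio was 2.7 (1.23 to 6.54), from 9 and 26 fragments. Isg15 had 18 and 59 fragments in CTCF-WT and 13 and 29 in CTCF-KO, giving 3.21 (1.87 to 5.78) and 2.08 (1.05 to 4.37). At both genes the intervals of CTCF-WT and CTCF-KO overlapped. In CTCF-KO the highest ratio was at Oas3, 3.42 (1.6 to 8.14) against 1.65 (0.907 to 3.08) in CTCF-WT. Gbp2 had 41, 84, 30 and 28 fragments, and its ratio was 2.01 (1.37 to 2.99) in CTCF-WT and 0.872 (0.502 to 1.51) in CTCF-KO. At Oasl1 the summit of 53 fragments in WTLPS stood on a local background of 27.5 fragments and had a fold of only 1.89, and a like summit of 42 fragments with fold 1.74 was present in KOLPS. Without Oasl1 the medians were 2.23 over 32 promoters and 1.75 over 33.

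**Figure D3:**
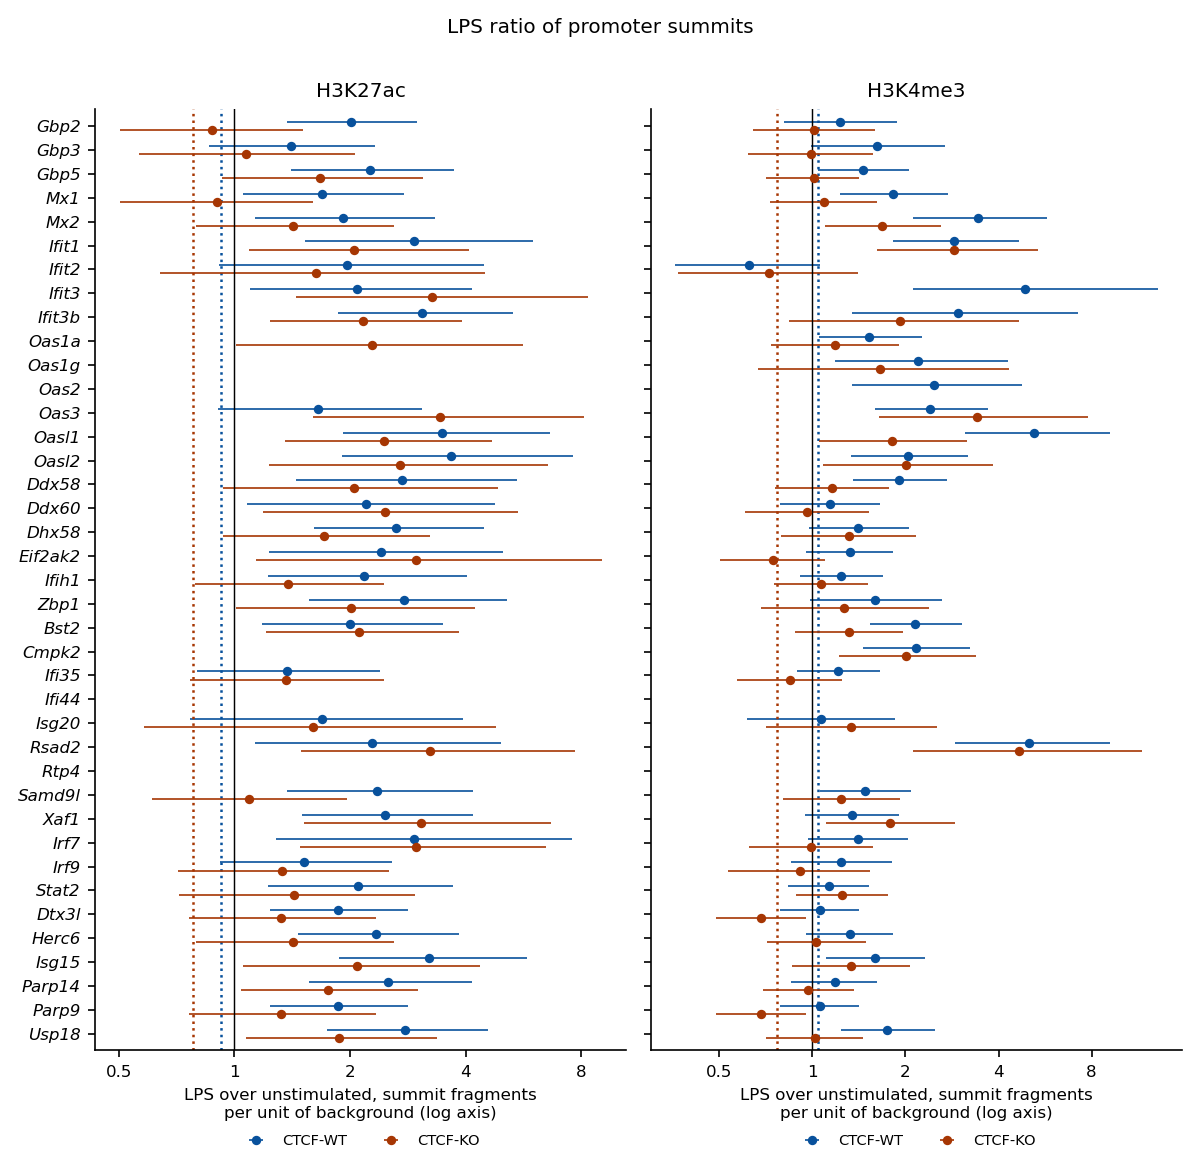
Ratio of summit fragments per unit of background after LPS to that without LPS (log axis) for H3K27ac (left) and H3K4me3 (right), with CTCF-WT in blue, CTCF-KO in brown, lines for exact 95% counting intervals and dotted lines for the median of protein-coding promoters. H3K27ac points lie right of both dotted lines for all genes drawn in CTCF-WT, and H3K4me3 points spread from 0.624 at Ifit2 to 5.22 at Oasl1.

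Compared directly between genotypes after LPS, H3K27ac covered fewer bases in KOLPS than in WTLPS at 35 of 39 promoters and more at 3, and 24.2% of protein-coding promoters had more. Summit fragments per background gave a KOLPS to WTLPS ratio with a median of 0.948 over 36 promoters (0.499 to 2.18), against 1.18 over protein-coding promoters. Irf7 had the highest value, 2.18, and Gbp2 the lowest, 0.499. Backgrounds of the H3K27ac lists were 1.17 and 1.2 fragments in CTCF-WT and 0.748 and 0.801 in CTCF-KO, so expected fragments were fewer in the CTCF-KO lists, and the part of this in the narrower peaks was not tested.

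H3K4me3 was also higher with LPS at many of the promoters, by less than H3K27ac in the median. The CTCF-WT ratio of summit fragments had a median of 1.53 over 37 promoters, against 1.04 over protein-coding promoters, and fragments were at least 1.5 times higher at 19 (3.62%) and at least 1.5 times lower at 1, Ifit2 (1%). It was 1.18 in CTCF-KO over 35 promoters, against 0.771, with 10 at least 1.5 times higher (0.615%) and 0 at least 1.5 times lower (20.1%). Intervals lay wholly above 1 at 19 promoters in CTCF-WT (2.15%) and at 8 in CTCF-KO (0.18%). Oasl1 had 18 and 88 fragments in CTCF-WT and 23 and 39 in CTCF-KO, which gives ratios of 5.22 (3.12 to 9.2) and 1.81 (1.05 to 3.17). These intervals overlap slightly. Rsad2 had 16, 75, 8 and 35 fragments, with ratios of 5 (2.89 to 9.19) and 4.66 (2.12 to 11.6), so both genotypes were high. Ifit3, with 7 fragments in WT and 32 in WTLPS, had no peak in KO and 19 fragments in KOLPS. Ifit1 had 27, 73, 17 and 46 fragments and a ratio of 2.88 in both genotypes. Stat2, Parp9 and Dtx3l were near the top of the set before LPS, with 91, 95 and 95 fragments in WT, and their CTCF-WT ratios were 1.13, 1.06 and 1.06. Intervals lay wholly below 1 at 0 promoters in CTCF-WT (0.914%) and in CTCF-KO at the shared promoter of Dtx3l and Parp9 (0.684, 0.488 to 0.954), against 17.4% of protein-coding promoters.

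A promoter peak of H3K4me3 appeared only with LPS at Ifi44 in CTCF-WT (1.14%) and at Ifi44, Ifit3 and Oas2 in CTCF-KO (0.593%). After LPS the KOLPS to WTLPS ratio was below 1 at all 38 promoters with both peaks, with a median of 0.636. Over protein-coding promoters the median was 0.699 and 8.09% lay above 1, so lower values in KOLPS were general. Rtp4 was the only one of the 39 with no H3K4me3 peak in any of the 4 lists. Its longest transcript starts at position 23520291 of chromosome 16, and at another annotated start of the gene, 89628 bp downstream, H3K4me3 summits had 25, 66, 11 and 27 fragments in WT, WTLPS, KO and KOLPS and H3K27ac covered 1065, 3035, 152 and 1949 bases. By that start Rtp4, which encodes an interferon-induced chaperone of receptors, had both marks in all 4 lists.

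p65 was called at the promoters of 4 genes. Gbp2, a guanylate-binding GTPase gene, carried it in every list. Its summit held 10 fragments before LPS [4.8 to 18.4] and 15 after it [8.4 to 24.7] in CTCF-WT, and 14 [7.65 to 23.5] and 15 [8.4 to 24.7] in CTCF-KO, with folds of 6.42, 8.62, 8.8 and 8.81. All 4 intervals overlap, and the summits lay between 38 bases before and 160 bases after the start. Gbp5, which promotes inflammasome assembly, had the strongest promoter summit, 22 fragments in WTLPS [13.8 to 33.3] with fold 12.4, 107 bases before the start. Parp14, an ADP-ribosyltransferase gene, had 10 fragments in WTLPS [4.8 to 18.4] with fold 5.93, in an intron 2246 bases after the start. Samd9l had 7 in WTLPS [2.81 to 14.4] with fold 4.31, 249 bases after the start and in an annotated UTR. Thus 3 promoters had p65 with LPS but not without it in CTCF-WT (2.42% of protein-coding promoters), and 0 did in CTCF-KO (1.6%). Of the 4 promoters with p65 in WTLPS, 3 had none in KOLPS, where 69.1% of protein-coding promoters with a WTLPS peak had none. The other 35 promoters, with the whole IFIT and OAS families, Isg15, Rsad2 and the 3 transcription factors among them, had no p65 peak in any list, as had 96.1% of protein-coding promoters. The weakest p65 peak called in WTLPS had 6 fragments, so weaker binding was not detectable at this depth. The lists also reached down to unlike −log10 p: 4.35 in WTLPS, 6.05 in WT, 5.46 in KO and 5.39 in KOLPS. At 5.48 the Samd9l peak was weaker than any peak in the WT list and close to the weakest in KOLPS. Its call in WTLPS alone therefore cannot be told apart from these unlike floors.

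Within 50 kb of a member's start lay 3 p65 peaks before LPS and 17 after it in CTCF-WT (0.384% and 0.311% of those lists), and 3 and 5 in CTCF-KO (0.595% and 0.285%). Counted by gene over WT, WTLPS, KO and KOLPS, 2, 12, 3 and 7 of the 39 had such a peak, against 4.84%, 20.2%, 3.15% and 10.5% of protein-coding genes. The 39 windows of 50 kb overlap and merge into 27, so neighbouring members can count the same peak. The guanylate-binding protein genes on chromosome 3 had more of these peaks than any other members: 7 of the 17 WTLPS peaks had Gbp2, Gbp3 or Gbp5 as the nearest member. Strongest was a summit in an intron of Gbp2b, 22681 bases before Gbp2, with 37 fragments in WTLPS [26.1 to 51] and fold 20.5. A peak at the same place had 23 fragments in WT, 18 in KO and 20 in KOLPS, and between 22.5% and 40.8% of the 31-base stretches around these summits have another copy in the genome. Next came a site 18287 bases before Parp14, with 28 fragments in WTLPS [18.6 to 40.5] and 15 in KOLPS [8.4 to 24.7], and none in WT or KO. That site is highly repeated, since 94.4% and 100% of the stretches around its WTLPS and KOLPS summits have other copies, and the part of this in its height was not tested. Peaks 28287 and 32721 bases after the start of Stat2, with 14 and 20 fragments in WTLPS, were nearest to the starts of Il23a and Pan2 and not to Stat2 among protein-coding genes. Among the remaining peaks in WTLPS, those 31718 bases after Gbp5 and 30266 bases before Gbp3, both nearest to the start of Gbp7, had 17 fragments each. The one 2800 bases before the Gbp5 start used here had 14 and lay in an intron of Gbp5. Those 22630 and 9814 bases before Mx1, in introns of Fam3b, had 10 each. At the farther of these, 70.4% of the stretches around the summit have other copies. Peaks 30232 bases before Ifit2, in an intron of Lipa, and 19185 bases before Parp9 had 12 and 8 fragments. The peak 10135 bases after the start of Bst2, nearest to the start of Ccdc194, had 13 and overlapped a p65 peak in KO. That 29704 bases before Gbp2, nearest to the start of Gbp2b, had 10 and overlapped a p65 peak in WT. A peak 16834 bases after the start of Ifi35, within Vat1 and Rnd2, was called in KOLPS only, with 16 fragments [9.15 to 26].

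**Figure D4:**
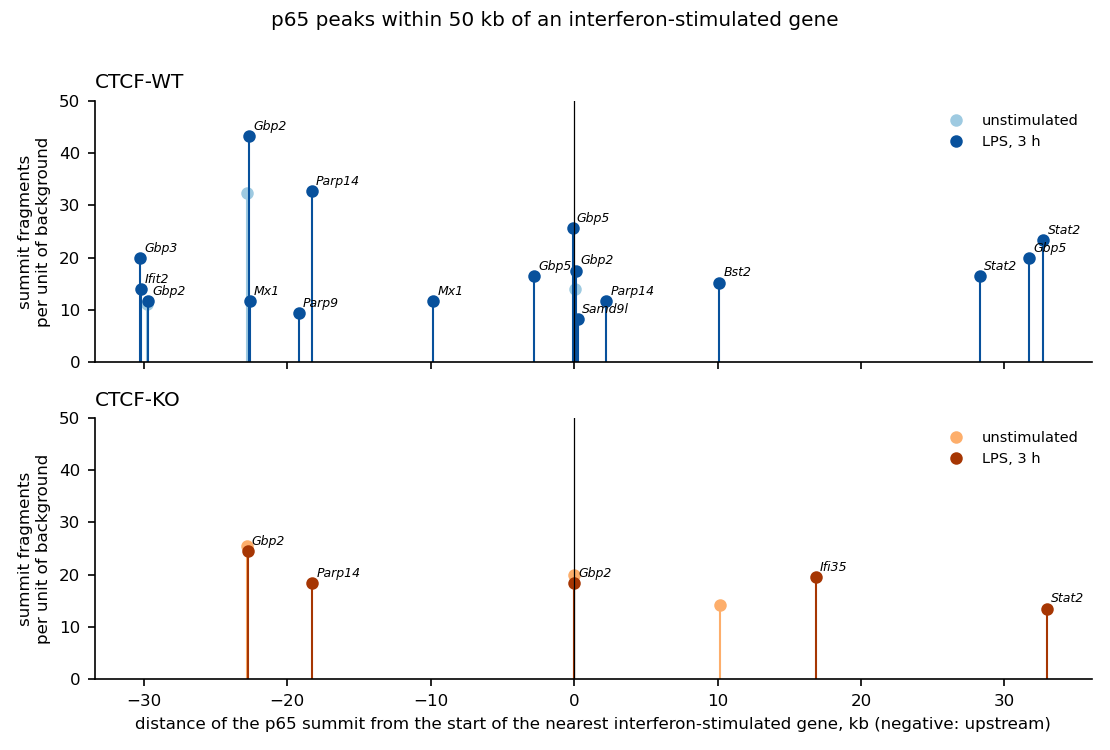
p65 summits within 50 kb of an interferon-stimulated gene, by distance from the start of the nearest such gene (kb, negative upstream) and summit fragments per unit of background, in CTCF-WT (top) and CTCF-KO (bottom), pale without LPS and dark after it. After LPS 17 summits are drawn for CTCF-WT and 5 for CTCF-KO, and the tallest in both lies near Gbp2.

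Of the 17 WTLPS peaks near members, 17 overlapped an SMC1 peak in WTLPS (88% of the list's 5465 p65 peaks did) and 15 an H3K27ac peak in WTLPS (75.4%). H3K27ac was already present in WT at 13 (64.6%). A CTCF peak in WTLPS overlapped 4 (6.33%), those at Gbp2, Parp14, Samd9l and 2800 bases before the Gbp5 start used here. A p65 peak in KOLPS overlapped 4 (22.7%). The κB consensus lay within 100 bases of the summit at 6 of the 17, against 19.1% of all WTLPS peaks. The sequences around 3 of the summits with it are shown because they carry p65 with its letters, with the κB match in capitals. The Parp14 intron window holds an interferon core as well (gaaaccgaaa), and the window 18 kb before Parp14 is the repeated one.

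Gbp5 start, chr3:142496777-142496877, plus strand: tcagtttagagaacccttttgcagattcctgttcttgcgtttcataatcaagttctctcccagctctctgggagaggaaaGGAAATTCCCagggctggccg
Parp14 intron, chr16:35869248-35869348, plus strand: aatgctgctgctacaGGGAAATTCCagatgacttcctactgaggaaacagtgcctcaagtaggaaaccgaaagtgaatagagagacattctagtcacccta
Before Parp14, chr16:35889781-35889881, plus strand: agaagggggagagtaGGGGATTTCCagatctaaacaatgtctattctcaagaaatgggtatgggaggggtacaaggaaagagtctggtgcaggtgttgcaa

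Cohesin was the most frequent of the factors measured at these promoters. SMC1 peaks stood at 22 promoters before LPS (30.4% of protein-coding promoters) and 24 after it (27.1%) in CTCF-WT, and at 17 (21.6%) and 17 (13.9%) in CTCF-KO. Among protein-coding promoters with H3K4me3 the shares were 45.4%, 40.1%, 34.8% and 22.7%. Of the 22 with SMC1 in WT, 7 had none in KO, where 44.9% of protein-coding promoters with one did: Bst2, Ifi35, Ifit3, Isg15, Oas3, Parp14 and Zbp1. Of the 24 with SMC1 in WTLPS, 9 had none in KOLPS, where 60.2% of protein-coding promoters did: Dtx3l, Herc6, Ifit3, Irf7, Irf9, Isg20, Parp9, Rsad2 and Zbp1. Peaks were called with LPS but not without at 5 promoters in CTCF-WT (Cmpk2, Herc6, Ifih1, Isg20 and Rsad2, 2.79%) and at 5 in CTCF-KO (Cmpk2, Ifit1, Isg15, Oas3 and Parp14, 2.33%). These were weak, at 25 to 30 fragments in CTCF-WT and 20 to 22 in CTCF-KO, next to the fewest fragments of any called SMC1 peak, 22 in WTLPS and 19 in KOLPS. In all 4 lists SMC1 stood at 11 promoters (9.29% of protein-coding promoters), and 11 had none in any list (62.1%), 5 of the 6 OAS genes among them.

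Because the strongest peak of a window need not lie at the same place in each list, SMC1 was also read at the site of its strongest WT peak, taking any peak with a summit within 250 bases. Of the 22 sites, 18 had such a peak in WTLPS, 11 in KO and 10 in KOLPS. Peaks that spanned the WT summit with their own summit farther away were not counted, as at Usp18 in WTLPS and Gbp3 in KO. Summits were lower than in WT at 11 of the 18 in WTLPS, at 9 of the 11 in KO and at 9 of the 10 in KOLPS. Sites of other protein-coding promoters were not read in this way. The SMC1 lists as a whole held 63638 and 57354 peaks in WT and WTLPS, and 29965 and 17241 in KO and KOLPS. The highest site lay 3294 bases before the Gbp5 start used here, in a peak that reaches into its window. It had 235 fragments in WT, 212 in WTLPS and 37 in KO, with no peak in KOLPS. The Gbp5 promoter peaks counted in CTCF-KO lay elsewhere, close to the start. Ifit2 had 150, 116, 51 and 22 fragments at its site in the order WT, WTLPS, KO and KOLPS, and Samd9l had 129, 126, 58 and 45. Gbp2, also with 129 in WT, had 106 in WTLPS and 32 in KO, and no peak at its site in KOLPS. Backgrounds of the SMC1 lists were 5.4, 5.76, 5.34 and 4.5 fragments, a narrower range than that of these summits. Mx1, with 26, 36, 32 and 22 fragments, differed less. Within 50 kb, 39 of 39 genes had an SMC1 peak in both CTCF-WT lists (81.1% and 80% of protein-coding genes), 27 in KO (57.7%) and 28 in KOLPS (45.2%).

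CTCF itself was called at about as many promoters as cohesin in CTCF-WT and at few in KOLPS. Its peaks stood at 20 promoters before LPS (29.5%) and 19 after it (27.2%) in CTCF-WT, and at 14 (19.1%) and 5 (10.1%) in CTCF-KO. Of the 20 in WT, 8 had no peak in KO (55.9% of protein-coding promoters with one), and of the 19 in WTLPS, 14 had none in KOLPS (71.1%). The 5 genes with CTCF in all 4 lists were Dhx58, Gbp3, Ifit2, Samd9l and Zbp1, against 7.17% of protein-coding promoters. Dtx3l, Gbp2, Ifih1, Irf9, Parp14, Parp9 and Stat2 had a promoter peak in the other 3 lists but not in KOLPS, and Eif2ak2, Ifi35, Ifit3, Irf7, Oas2 and Oasl1 had one in both CTCF-WT lists only. Bst2 and Oas1a had one in WT alone, Ifit1 in WTLPS alone, and Ddx60 and Herc6 in KO alone with 21 and 16 fragments, while 16 genes had none in any list, as had 63.1% of protein-coding promoters.

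Read at the site of the strongest WT peak, as for SMC1, CTCF had fewer summit fragments in CTCF-KO wherever it was called there. Of the 20 sites, 12 had a peak with a summit within 250 bases in KO and 7 in KOLPS. Each of these had fewer fragments than in WT. In WTLPS 17 sites had such a peak, and 16 of these were also lower than in WT, so lower summits were not particular to CTCF-KO. The KOLPS summits were lower than those in WTLPS as well. Sites of other protein-coding promoters were not read in this way. Backgrounds of the CTCF lists were 3.74 and 3.53 fragments in CTCF-WT and 2.95 and 2.82 in CTCF-KO. Expected fragments were thus fewer in CTCF-KO, and the part of this in the lower summits was not tested. Dtx3l and Parp9 share a site, which is counted for each of them. At Parp14, Ifih1 and Oas2 the promoter call in KOLPS differs from that at the site, because the summit lies outside the window and the narrower peak there did not reach into it. Parp14 had its summit 3028 bases before the start, with 154 fragments [131 to 180] before LPS and 115 [94.9 to 138] after it in CTCF-WT, and 50 [37.1 to 65.9] and 23 in CTCF-KO. Ifih1, the MDA5 sensor gene, had 135, 88, 35 and 24 fragments at a site 2781 bases after the start, and the weaker KO peak counted at its promoter was another one. At Oas2 the site 3193 bases after the start had 98, 76, 23 and 23 fragments. WT folds at these 3 sites were 32.7, 28.7 and 19.1. All 3 had CTCF in KOLPS, at a lower height, although none was counted at the promoter.

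Samd9l, whose site lay 34 bases before the start, had the most in CTCF-KO, with 109 fragments [89.5 to 131] and 65 [50.2 to 82.8] without and with LPS in CTCF-WT, and 77 [60.8 to 96.2] and 33 [22.7 to 46.3] in CTCF-KO. Its WT and KO intervals overlap, and per unit of background its summits were 29.2, 18.4, 26.1 and 11.7 in WT, WTLPS, KO and KOLPS. Its promoter is one of those with repeated sequence. Ifit2 had 116, 110, 46 and 30 fragments with folds of 23.4, 22.4, 11.9 and 8.11. For Dhx58 the values were 94, 70, 48 and 21 (folds 20.1, 15.7, 12.4 and 5.76), and for Gbp3 81, 75, 21 and 19 (17.3, 16.8, 5.57 and 5.23). In these 3 the KOLPS summit was the lowest. Zbp1 had 85 fragments in WT (fold 18.2). Its peaks in the other lists, with 64, 22 and 16 fragments, had summits more than 250 bases from that one. Those in WTLPS and KO still spanned the WT summit.

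The other sites had no CTCF peak in KOLPS. Gbp2 had 120, 75 and 26 fragments in WT, WTLPS and KO (folds 25.5, 16.8 and 6.84). The site shared by Dtx3l and Parp9 had 87, 46 and 20 (18.6, 10.4 and 5.32), and a second peak about 2.5 kb before the start of Dtx3l had 59 in WTLPS and 22 in KO. Stat2 had 74, 44 and 24 (15.8, 9.93 and 6.33) and Irf9 had 41, 32 and 18 (8.86, 7.28 and 4.81). Sites called in WT and WTLPS alone were those of Ifi35 with 53 and 39 (11.4 and 8.82), Irf7 with 42 and 29 (8.61 and 6.51), Ifit3 with 40 and 29 (6.74 and 5.17), Oasl1 with 38 and 26 (6.45 and 4.69) and Eif2ak2 with 25 and 29 (4.49 and 6.62). Oas1a had 29 (3.66) and Bst2 27 (5.91) in WT alone. Within 50 kb, 39 of 39 genes had a CTCF peak in both CTCF-WT lists (84.3% and 83.2% of protein-coding genes), 32 in KO (67.8%) and 31 in KOLPS (54.2%).

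**Figure D5:**
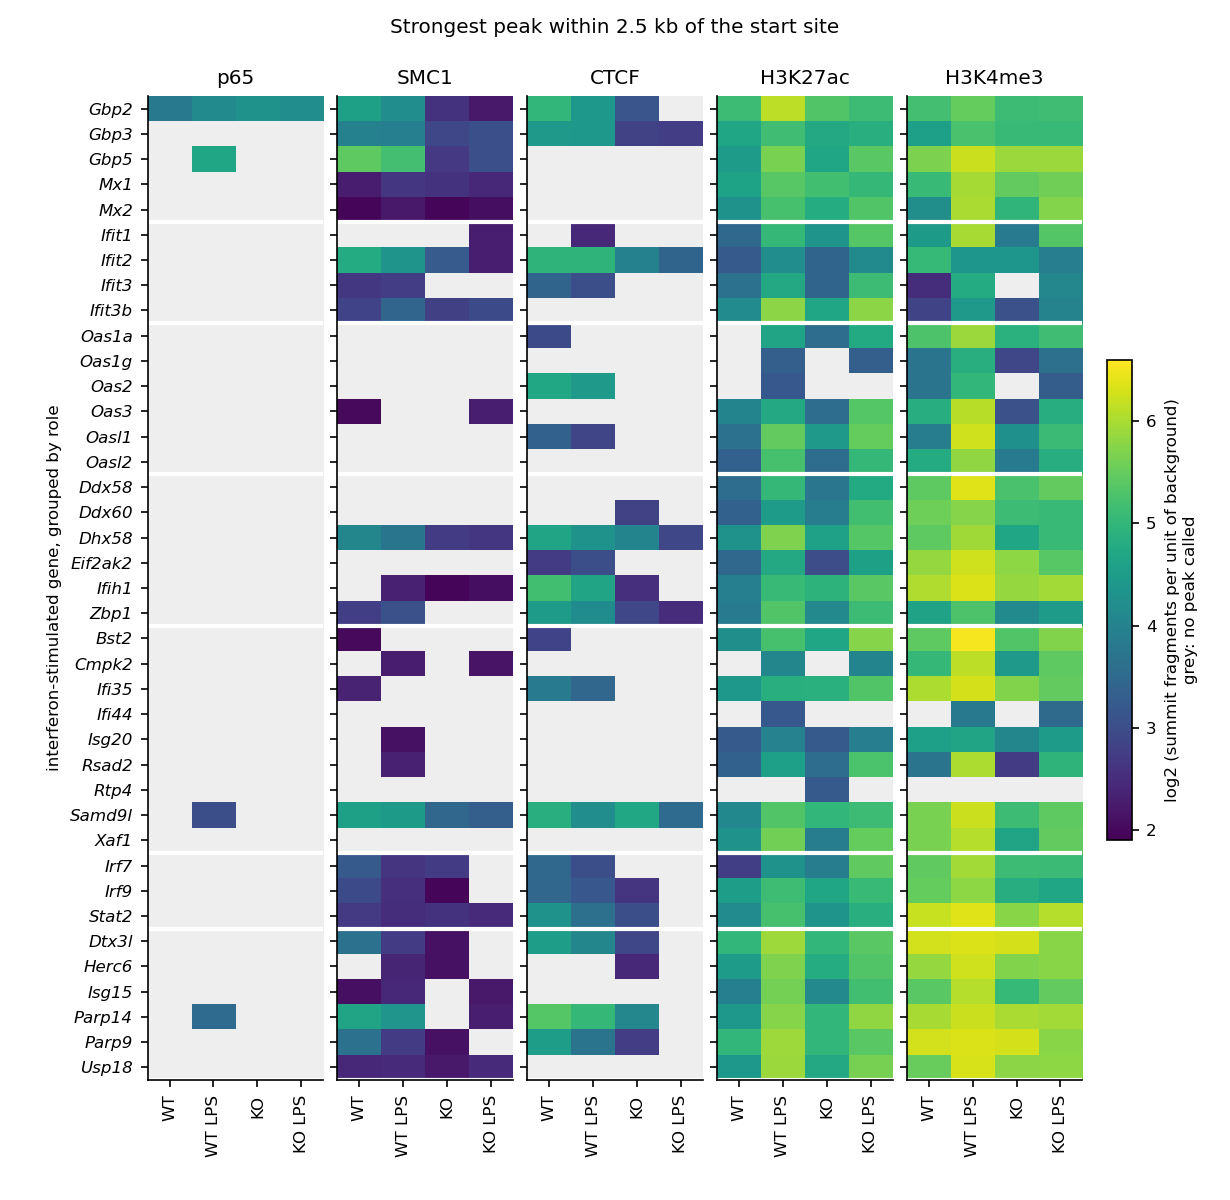
Strongest promoter peak of each interferon-stimulated gene (rows, grouped by role) in the p65, SMC1, CTCF, H3K27ac and H3K4me3 lists (columns by condition), coloured by the log2 of summit fragments per unit of background, with grey where no peak was called. The p65 panel is grey except at 4 genes, the CTCF panel turns grey from WT to KOLPS, and the histone panels are filled for nearly every gene.

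STAT5 was found at few of these promoters but at a larger share than among protein-coding promoters. H3K27me3 was found at few and at a smaller share, and H3K4me1 at most. STAT5, which GM-CSF activates, was called at 6 in WT (3.96%) and 7 in KO (3.29%): Gbp2, Gbp5, Ifi35, Irf9, Parp14 and Zbp1 in both and Stat2 in KO. Gbp5 was the strongest, with 85 fragments in WT (fold 36.9) and 69 in KO (25.9), and it is also a gene where p65 came with LPS. The enhancer mark H3K4me1 lay at 38, 35, 37 and 31 promoters in WT, WTLPS, KO and KOLPS (57.1%, 57.3%, 56.8% and 46.5%). H3K27me3, which Polycomb places at silent genes, lay at 4, 4, 4 and 0 (27.1%, 20.8%, 27.6% and 11.8%). Genes with it in any list were Cmpk2, Ifit3b, Irf7, Oas1a, Oas2, Rtp4 and Samd9l. The widest cover, 1701 bases in WT, was at the Rtp4 start that lacked H3K4me3, whose window also holds the Masp1 start.

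Upstream of these genes, p65 was called at other steps of the pathway. Among 27 genes of sensing, receptor signalling and feedback, 0 promoters had p65 in WT or KO, 6 in WTLPS (against 2.86% of protein-coding promoters) and 2 in KOLPS (1.86%). Tbk1, the kinase that activates IRF3, had 35 fragments in WTLPS with fold 19.4, and Jak2 had 13 with fold 7.55, and these 2 also had p65 in KOLPS. Ticam2 had 10 fragments (5.93), and Ifnar1, Irf1 and Trim25 had 8 each (4.85). At Ifnb1, the interferon β gene, H3K27ac covered 694 bases before LPS and 3149 after it in CTCF-WT, and 361 and 416 in CTCF-KO, and no list had a p65 peak at its promoter. Cover was at least 2 times higher with LPS at 3 of these 27 promoters in CTCF-WT (4.08% of protein-coding promoters). In CTCF-KO it was so at 0 (2.67%), and among the interferon-stimulated genes at 16 and 15 of 39. These counts cannot be compared as responses to LPS, because cover cannot exceed the 5001 bases of the window. Median cover without LPS was 2971 bases in WT and 2514 in KO over the 27 promoters, against 1563 and 1452 over the 39. A promoter at the median of the 27 could not have doubled in either genotype. The difference between lists was not tested.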

How the data were processed

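ChIP-seq was described for 34 samples, of which 30 had a peak list, and the 4 input samples had none. Per the labels and methods, the authors trimmed paired reads, aligned them to mm10 with BWA (0.7.12), discarded PCR duplicates using Picard (1.77) and ran MACS2 (2.1.2) with the inputs as control; the versions are those of the submitters' processing notes, and the methods name others. The deposited values of a peak are its fold enrichment, the ratio of fragments at the summit to those expected locally, and p- and q-values on a −log10 scale, as MACS2 wrote them for the authors. Lists for H3K4me1 and H3K27me3 are broad peaks, the others narrow peaks with a summit, and the p65 lists were filtered for problem regions. The methods describe calling peaks in each replicate, and a general statement of the study says that replicates were merged and processed again together. Each antibody and condition has 1 list, and no source says of a given list which of these it is.

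The 39 genes and the other gene lists were chosen with earlier results of these data known. Gene models were GENCODE vM21, whose build matched: 0 peaks passed a chromosome end. Transcript starts, promoters of 2.5 kb either side, windows of 50 kb, bases under peaks and summit fragments were computed with python 3.11.15, pandas 2.3.3, numpy 2.4.6, scipy 1.17.1 and pysam 0.24.0, and the scripts were tested on simulated data. Figures used matplotlib 3.10.9. Full values were set by rule for genes with p65 at the promoter in any list or CTCF in WT, other genes were named where their call differed between conditions, and wider pathway genes where p65 was called in WTLPS. Genes singled out for H3K27ac, H3K4me3, SMC1 or STAT5 values, and Ifnb1, were chosen after their values were seen. Of 28 wider pathway genes, 27 were found in the annotation. Alternatives changed the promoter width, overlap rule, peak floor, distance and fold limits. A few items are not reported here.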

Additional observations from a re-analysis of the deposited data

Results flagged for a closer look

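At 11 pairs of gene and mark, the ratio of summit fragments per unit of background after LPS to that without it lay above 1 in CTCF-WT and below 1 in CTCF-KO. With 1 list per condition this difference between genotypes was not tested, and each value carries counting error. For H3K27ac the ratios in CTCF-WT and CTCF-KO were 2.01 and 0.872 at Gbp2 and 1.69 and 0.899 at Mx1, both GTPase genes, where the median of protein-coding promoters was 0.922 and 0.778. For H3K4me3 they were 1.62 and 0.988 at Gbp3, 1.4 and 0.99 at Irf7, 1.32 and 0.748 at Eif2ak2, 1.24 and 0.909 at Irf9, and 1.21 and 0.846 at Ifi35. Smaller CTCF-WT ratios of H3K4me3 were found at Parp14, 1.18 and 0.969, at Ddx60, 1.14 and 0.964, and at the shared promoter of Dtx3l and Parp9, 1.06 and 0.684 for both genes. The median H3K4me3 ratio of protein-coding promoters was 1.04 in CTCF-WT and 0.771 in CTCF-KO. Of the 9 CTCF-KO values, those at Eif2ak2, Dtx3l and Parp9 lie below this median.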

How the results depend on the processing

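Of 160 values under alternative settings, 132 stayed within 1.5 times the value reported. With a floor on −log10 p at 2 times the common one, p65 promoters in WTLPS not called in KOLPS were 1, SMC1 promoters called only with LPS were 3 in CTCF-WT and 0 in CTCF-KO, H3K27ac ones were 5 in CTCF-KO, H3K4me3 ones were 3 and 5, promoters with H3K4me1 in all 4 lists were 3, those with H3K27me3 in any list were 0, and p65 peaks within 50 kb in WTLPS were 10. With promoters of 1 kb either side, CTCF promoters not called in CTCF-KO were 5 without and 7 with LPS, H3K4me1 promoters in all 4 lists were 15 (17 by peak midpoint) and H3K27me3 promoters in any list were 3. p65 peaks in WTLPS were 11 within 25 kb, 30 within 100 kb and 8 where a member's was the nearest protein-coding start, and those in KOLPS were 8 within 100 kb and 2 by nearest start. The interferon core was found in 89.7% of genes within 2.5 kb. H3K27ac cover was at least 1.5 times higher at 25 promoters in CTCF-WT and 23 in CTCF-KO, and at least 3 times higher at 7 in CTCF-KO. H3K4me3 fragments were at least 2 times higher at 12 and 5 promoters. Causes of these shifts, beyond the stricter or wider limits themselves, were not tested. The alternatives for H3K27ac cover and for summit fragments, leaving out Oasl1 among them, were chosen after seeing the data. Reading CTCF and SMC1 at the site of the WT summit was also added after seeing the data. No paired analysis was possible because each antibody and condition has a single list. Depth limits weak p65 and SMC1 sites.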
